A study of Mus musculus with 6 samples.

Results

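The 10 genes followed here mark ductal and other simple epithelia: 5 keratins (Krt7, Krt8, Krt18, Krt19 and Krt20), the surface proteins Epcam, Tspan8 and Folr1, the secreted protein Spp1 and the chloride channel Cftr. They were taken by gene symbol from a table of 54556 genes, and all 10 were found. RNA came from whole pancreatic islets of C57BL/6 mice aged 8 weeks on normal chow. The 6 libraries were 3 with the genotype Mettl3 flox/flox (FF 1 to FF 3) and 3 with Mettl3 flox/flox and RIP-Cre, whose labels call them β-cell knockouts (BKO 1 to BKO 3). RIP-Cre is a Cre recombinase driven by the rat insulin promoter, which is active in β cells. Both groups carry the floxed allele, and no library with Cre but without it was included, so Cre and the deletion cannot be told apart. The labels name no animals and do not say whether islets were pooled, so a p-value here measures the spread between these libraries, which may be technical.

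Keratins build the intermediate filaments of epithelial cells as pairs of a type II and a type I chain. In simple epithelia the first pair is Krt8 (type II) with Krt18 (type I), to which Krt7 (type II), Krt19 (type I) and Krt20 (type I) are added in particular tissues. Pancreatic ducts are known for Krt7, Krt19, Cftr and Spp1, and Krt20 is best known from the differentiated epithelium of the intestine, which also has Krt8, Krt18, Krt19, Epcam, Tspan8 and Cftr. Islet endocrine cells themselves make Krt8, Krt18 and Epcam. Most of these genes are therefore shared by several of the cell types that islet RNA can hold.

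Recovered reads came to 16398862 to 17691055 per FF library and 16719393 to 18387313 per BKO library. Mettl3, which encodes the catalytic subunit of the m6A methyltransferase, had 263, 212 and 296 reads in FF 1 to FF 3 and 430, 417 and 437 in BKO 1 to BKO 3. Its log2 difference of 0.25 ± 0.11 (SE, limma adjusted p = 0.120) was not negative, and reads summed over the whole gene do not check a deletion of exons, so directions are those of libraries labelled knockout. The β-cell markers fixed for the islet label were abundant in every library, at a summed 257106 to 319383 FPKM in FF and 112093 to 125413 in BKO. Of these 10 markers, 9 were lower in BKO (limma adjusted p under 0.05), as were 17.2% of all tested genes. FPKM is fragments per kilobase of gene, scaled between libraries. Reads of enterocyte and lymphocyte genes also differed between the BKO libraries and are given beside the results they move with.

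The promoters of the genes on which the results turn are shown first. RefSeq gave a promoter entry for 8 of the 10 genes, with none for Krt19 and Folr1. Each line holds the 250 bases before the annotated start on GRCm38.p6, 5′ to 3′ on the strand of the gene, with capitals on the letters TTTAT or their reverse complement ATAAA, the core that CDX factors of the intestine bind. Krt20 is shown because it had reads in BKO and none in FF (chr11:99438154-99438403, minus strand). Krt8 (chr15:102004343-102004592, minus strand) and Krt18 (chr15:102027966-102028215, plus strand) are shown because the proportion of these filament partners differed between the groups. Their RefSeq starts lie inside the deposited gene positions given below, and so does part of each window. Epcam (chr17:87635729-87635978, plus strand) is shown as the surface gene with the tightest difference.
Krt20: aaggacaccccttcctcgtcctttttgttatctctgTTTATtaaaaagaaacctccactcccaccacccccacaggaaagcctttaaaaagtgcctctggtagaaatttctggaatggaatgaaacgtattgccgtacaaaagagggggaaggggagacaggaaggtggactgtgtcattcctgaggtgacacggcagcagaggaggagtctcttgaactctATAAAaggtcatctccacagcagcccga
Krt8: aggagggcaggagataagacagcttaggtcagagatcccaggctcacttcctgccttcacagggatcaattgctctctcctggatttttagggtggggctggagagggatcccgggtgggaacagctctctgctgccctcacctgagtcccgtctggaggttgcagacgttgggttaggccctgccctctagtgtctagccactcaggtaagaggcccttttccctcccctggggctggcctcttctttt
Krt18: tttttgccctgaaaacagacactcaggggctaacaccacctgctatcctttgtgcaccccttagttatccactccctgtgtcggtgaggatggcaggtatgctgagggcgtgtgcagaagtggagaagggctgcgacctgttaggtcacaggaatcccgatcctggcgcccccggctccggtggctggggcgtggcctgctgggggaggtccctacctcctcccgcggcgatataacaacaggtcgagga
Epcam: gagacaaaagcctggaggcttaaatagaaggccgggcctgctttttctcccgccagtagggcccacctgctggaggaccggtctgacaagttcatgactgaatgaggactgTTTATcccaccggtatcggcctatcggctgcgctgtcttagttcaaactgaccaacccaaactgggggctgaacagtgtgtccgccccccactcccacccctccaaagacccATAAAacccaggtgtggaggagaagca
The Krt20 sequence holds the core 214 and 28 bases upstream of the start, the second of them inside TATAAA, the TATA box motif, which begins 29 bases upstream. Epcam holds it 139 and 27 bases upstream, whereas the Krt8 and Krt18 windows hold none. Searched on both strands, the core was in promoters of 4 of the 8 genes (Krt7, Krt20, Epcam and Spp1), against 37.3% of 32851 RefSeq promoters of the same length. TATAAA (or TTTATA), which overlaps the core, was in 2 of 8 (Krt20 and Spp1) against 12.4%. These counts are per gene, where a match at either of the 2 start sites of Spp1 counted, while the percentages are per promoter. A match describes the letters and does not show that a factor binds there.

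Between the groups, 5 of the 9 genes that could be tested rose in the libraries labelled knockout: Krt20, Krt8, Epcam, Tspan8 and Folr1. Krt7, Krt18, Krt19 and Spp1 did not pass the threshold (adjusted p under 0.05), and Cftr lay below the mean of 1 FPKM that a gene needed to enter the test. Krt20, without a read in FF, reached that mean only through BKO, so it could only be called higher. None of the 9 fell. The count of 5 dropped to 2 without BKO 3, FF 1 or FF 3, to 0 without BKO 2 and BKO 3, and to 2 with limma without a variance trend or with every gene with a read tested. Across all 14497 tested genes 16.9% rose and 17.2% fell. The median log2 difference of the 9 was 0.62, against -0.0045 over all tested genes, and it would stay there if Krt20, which lay above it, were set to a bound. For the same 5 genes the 3 BKO values all lay above the 3 FF values, a pattern that 25.1% of tested genes showed. In bulk islet RNA, more or fewer cells of a type and more or less RNA per cell cannot be told apart.

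**Figure D1:**
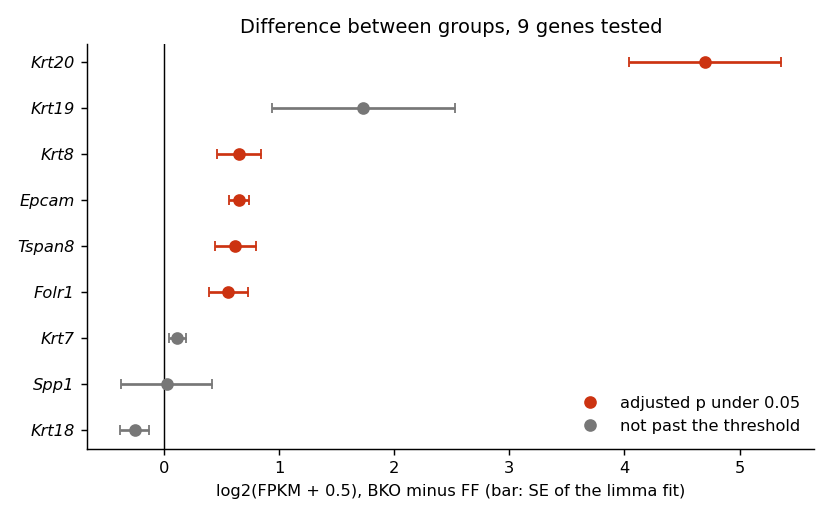
Difference between the groups for the 9 tested genes, on a horizontal axis of log2(FPKM + 0.5), BKO minus FF, with bars for the standard error of the limma fit (n = 3 per group) and red points for adjusted p under 0.05. Krt20 lies at 4.70, Krt8, Epcam, Tspan8 and Folr1 lie between 0.56 and 0.65, and the wide bar of Krt19 at 1.73 belongs to a gene that did not pass.

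Krt8 rose, and its partner Krt18 did not pass the threshold. Positions of genes are on GRCm38. Krt8 (ENSMUSG00000049382, chr15:101996698-102004482, minus strand) was at 81.9, 116.2 and 84.6 FPKM in FF 1 to FF 3 and at 120.9, 182.8 and 142.9 in BKO 1 to BKO 3. All BKO values lay above all FF values, by a narrow step between FF 2 and BKO 1. The means were 94.2 ± 19.1 and 148.9 ± 31.4 FPKM (SD, n = 3 each), a log2 difference of 0.65 ± 0.19 (SE, limma adjusted p = 0.0386). The call was lost in 7 of 16 alternatives, among them without BKO 2 (adjusted p = 0.0873), BKO 3 (0.0971), FF 1 (0.11) or FF 3 (0.116). With BKO 2 and BKO 3 both left out the difference was 0.38 (adjusted p = 0.373).

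Krt18 (ENSMUSG00000023043, chr15:102028180-102032027, plus strand) was at 111.4, 150.2 and 117.9 FPKM in FF 1 to FF 3 and at 112.4, 104.2 and 98.9 in BKO 1 to BKO 3. The groups overlapped, since BKO 1 was above FF 1, and the spread was wider in FF. The means were 126.5 ± 20.8 and 105.2 ± 6.78 FPKM (SD, n = 3 each) and the log2 difference of -0.25 ± 0.12 (SE, limma adjusted p = 0.156) passed in none of the 16 alternatives. Scaling each library to its own total turned it to 0.15, a setting that moves the median of all tested genes to 0.37, so that Krt18 lay below that median there too.

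The FPKM of Krt8 over that of Krt18 was 0.735, 0.774 and 0.718 in FF 1 to FF 3 and 1.08, 1.75 and 1.44 in BKO 1 to BKO 3. The FF values lay close together, and each BKO value lay above all of them. The mean ratio went from 0.742 ± 0.0286 to 1.42 ± 0.339 (SD, n = 3 each, two-sided exact permutation p = 0.10, below which groups of 3 cannot go). Summed over chains, type II (Krt7 and Krt8) came to 0.934 ± 0.0493 times type I (Krt18, Krt19 and Krt20) in FF and to 1.19 ± 0.0807 times in BKO, without overlap in FPKM (exact two-sided permutation p = 0.10). The range in BKO, 1.11 to 1.27, was narrower than that of Krt8 over Krt18, with Krt19 and Krt20 high in the same libraries as Krt8. Being ratios within a library, these values do not depend on how libraries were scaled. The sum over chains does depend on the gene lengths that FPKM divides by. Krt7 was divided by 7049 bases and the other keratins here by 1437 (Krt18) to 1958 (Krt8). Reads of Krt7 therefore weigh less in that sum. With reads in place of FPKM, type II over type I was lower in BKO 2 than in FF 2, so the groups overlapped. In Krt8 over Krt18 the lengths enter as the same factor in every library.

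**Figure D2:**
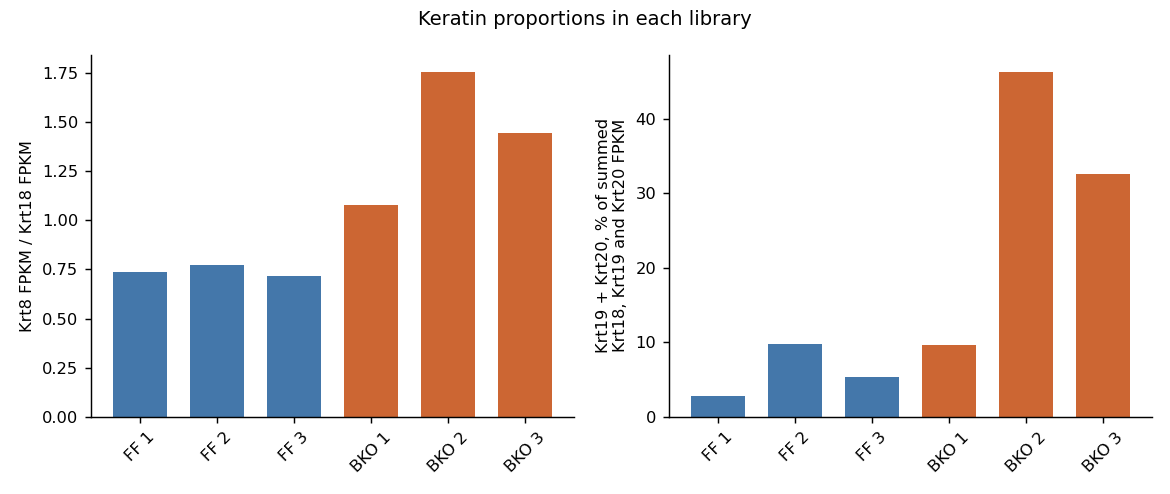
Keratin proportions in each of the 6 libraries. The left bars give Krt8 FPKM divided by Krt18 FPKM, at 0.718 to 0.774 in FF (blue) and 1.08 to 1.75 in BKO (orange), and the right bars give Krt19 plus Krt20 as a percent of the summed FPKM of the type I chains Krt18, Krt19 and Krt20, where BKO 1 at 9.62% lies just below FF 2 at 9.73%.

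Krt7, the second type II chain and a classic marker of duct epithelium, did not pass. Krt7 (ENSMUSG00000023039, chr15:101411043-101430313, plus strand) was at 31.5, 32.5 and 30.0 FPKM in FF 1 to FF 3 and at 36.8, 32.0 and 33.2 in BKO 1 to BKO 3. It had the smallest relative spread of the 5 keratins within FF, and BKO 2 lay inside the FF range. The means of 31.3 ± 1.24 and 34.0 ± 2.48 FPKM (SD, n = 3 each) gave a log2 difference of 0.11 ± 0.07 (SE, limma adjusted p = 0.278), which passed in 2 of 16 alternatives, at 0.52 with own-total scaling (adjusted p = 0.00119) and 0.21 with quantile normalization (0.0358). The deposited length of Krt7 is 7049 bases, against 1437 to 1958 for the other 4 keratins here, so its FPKM was lower than that of Krt8 in FF although it had 3142 to 3363 reads there against 2426 to 3287. An antisense gene with 24 to 41 reads per library overlaps it, and the strandedness of the libraries is not given in the sources used here.

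Krt19, the type I chain used most often to label pancreatic ducts, varied widely within each group. Krt19 (ENSMUSG00000020911, chr11:100140810-100148665, minus strand) was at 3.28, 16.2 and 6.72 FPKM in FF 1 to FF 3 and at 8.22, 59.7 and 31.3 in BKO 1 to BKO 3. FF 2 was higher than BKO 1, so the groups overlapped, while BKO 2 and BKO 3 stood above every FF library. With means of 8.73 ± 6.69 and 33.1 ± 25.8 FPKM (SD, n = 3 each), the log2 difference of 1.73 ± 0.80 (SE, limma adjusted p = 0.138) did not pass. It passed without BKO 1 (2.51, adjusted p = 0.0345) and was 0.18 without BKO 2 and BKO 3.

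Krt20 had no read in any FF library. Krt20 (ENSMUSG00000035775, chr11:99428403-99438150, minus strand) had 0, 0 and 0 reads in FF 1 to FF 3 and 150, 1131 and 663 in BKO 1 to BKO 3, which is 3.73, 30.0 and 16.6 FPKM. Every BKO library was above FF, and BKO 2 was 8.04 times BKO 1. The BKO mean of 16.8 ± 13.1 FPKM (SD, n = 3) was at least 479-fold higher than FF, taking 3 reads over the FF group (0.0350 FPKM) as the limit that a count of 0 allows, which covers counting error only. On the log2(FPKM + 0.5) scale the difference was 4.70 ± 0.66 (SE, limma adjusted p = 0.00304), a size that depends on the pseudocount. Since Krt20 entered the test through BKO alone, only a rise could be called. With limma-voom on recovered reads the call was lost (adjusted p = 0.205), and without BKO 2 and BKO 3 the gene fell below the filter.

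Together Krt19 and Krt20 made up 2.86%, 9.73% and 5.39% of the summed type I FPKM in FF 1 to FF 3 and 9.62%, 46.3% and 32.6% in BKO 1 to BKO 3. That share overlapped between the groups (exact two-sided permutation p = 0.20). Krt20 over Krt19 was 0.454, 0.502 and 0.530 in BKO 1 to BKO 3, so the proportion of these type I chains varied little while their levels varied several fold. In FF, where Krt19 reached 434 reads in FF 2, there was no Krt20 read. Summed enterocyte markers had the same order over the BKO libraries, at 304.8, 1109.7 and 639.5 FPKM in BKO 1 to BKO 3, and their part in the Krt19 and Krt20 values was not tested.

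Epcam, a homophilic adhesion protein of epithelial cells, rose with a small spread in both groups. Epcam (ENSMUSG00000045394, chr17:87635979-87651106, plus strand) was at 46.1, 51.4 and 44.6 FPKM in FF 1 to FF 3 and at 71.9, 81.6 and 70.7 in BKO 1 to BKO 3. The groups were well apart, and the spread in each was small beside the step between them. Its means of 47.4 ± 3.57 and 74.7 ± 6.02 FPKM (SD, n = 3 each) gave a log2 difference of 0.65 ± 0.09 (SE, limma adjusted p = 0.00261). Without BKO 2 and BKO 3 it was 0.60 (adjusted p = 0.0593), the 1 alternative of 16 that ended the call.

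Tspan8, a tetraspanin of the cell surface that is abundant in gut epithelium, rose with a wider spread. Tspan8 (ENSMUSG00000034127, chr10:115816832-115849893, plus strand) was at 10.1, 11.5 and 11.3 FPKM in FF 1 to FF 3 and at 13.4, 22.4 and 16.8 in BKO 1 to BKO 3. The FF libraries were nearly alike, and all BKO libraries lay above them. The means were 11 ± 0.758 and 17.5 ± 4.55 FPKM (SD, n = 3 each), with a log2 difference of 0.62 ± 0.18 (SE, limma adjusted p = 0.0351). It lost the call in 7 of 16 alternatives, among them without BKO 3 (adjusted p = 0.0911), FF 1 (0.0991), FF 2 (0.0701) or FF 3 (0.0829), and was 0.28 without BKO 2 and BKO 3 (adjusted p = 0.2).

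Folr1, a membrane receptor that takes up folate, rose with groups that only just parted. Folr1 (ENSMUSG00000001827, chr7:101858331-101870788, minus strand) was at 4.09, 4.88 and 3.43 FPKM in FF 1 to FF 3 and at 7.39, 4.94 and 6.74 in BKO 1 to BKO 3. BKO 2, at 4.94, was barely above FF 2, at 4.88, and BKO 2 was here the lowest of its group. The means of 4.13 ± 0.727 and 6.36 ± 1.27 FPKM (SD, n = 3 each) gave a log2 difference of 0.56 ± 0.17 (SE, limma adjusted p = 0.0457). This call was lost in 9 of 16 alternatives, among them without BKO 1 (adjusted p = 0.12), BKO 3 (0.137), FF 1 (0.104) or FF 3 (0.129). The gene overlaps Anapc15 on the opposite strand, which had 62 to 105 reads per library, against 117 to 354 for Folr1.

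Spp1, which encodes the secreted matrix protein osteopontin, had nearly equal means and a wide spread in both groups. Spp1 (ENSMUSG00000029304, chr5:104435118-104441050, plus strand) was at 34.5, 82.1 and 47.7 FPKM in FF 1 to FF 3 and at 79.3, 33.8 and 52.8 in BKO 1 to BKO 3. FF 2 was the highest FF library and BKO 2 the lowest BKO library. The means were 54.8 ± 24.6 and 55.3 ± 22.9 FPKM (SD, n = 3 each), and the log2 difference of 0.02 ± 0.39 (SE, limma adjusted p = 0.973) passed in none of 16 alternatives.

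Cftr, the chloride and bicarbonate channel of duct cells, had few reads. Cftr (ENSMUSG00000041301, chr6:18170687-18322768, plus strand) had 7, 32 and 13 reads in FF 1 to FF 3 and 15, 122 and 67 in BKO 1 to BKO 3. That is 0.0596, 0.285 and 0.113 FPKM in FF and 0.0927, 0.803 and 0.416 in BKO, with BKO 1 inside the FF range. When every gene with a read was tested, its log2 difference was 0.46 (adjusted p = 0.424).

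**Figure D3:**
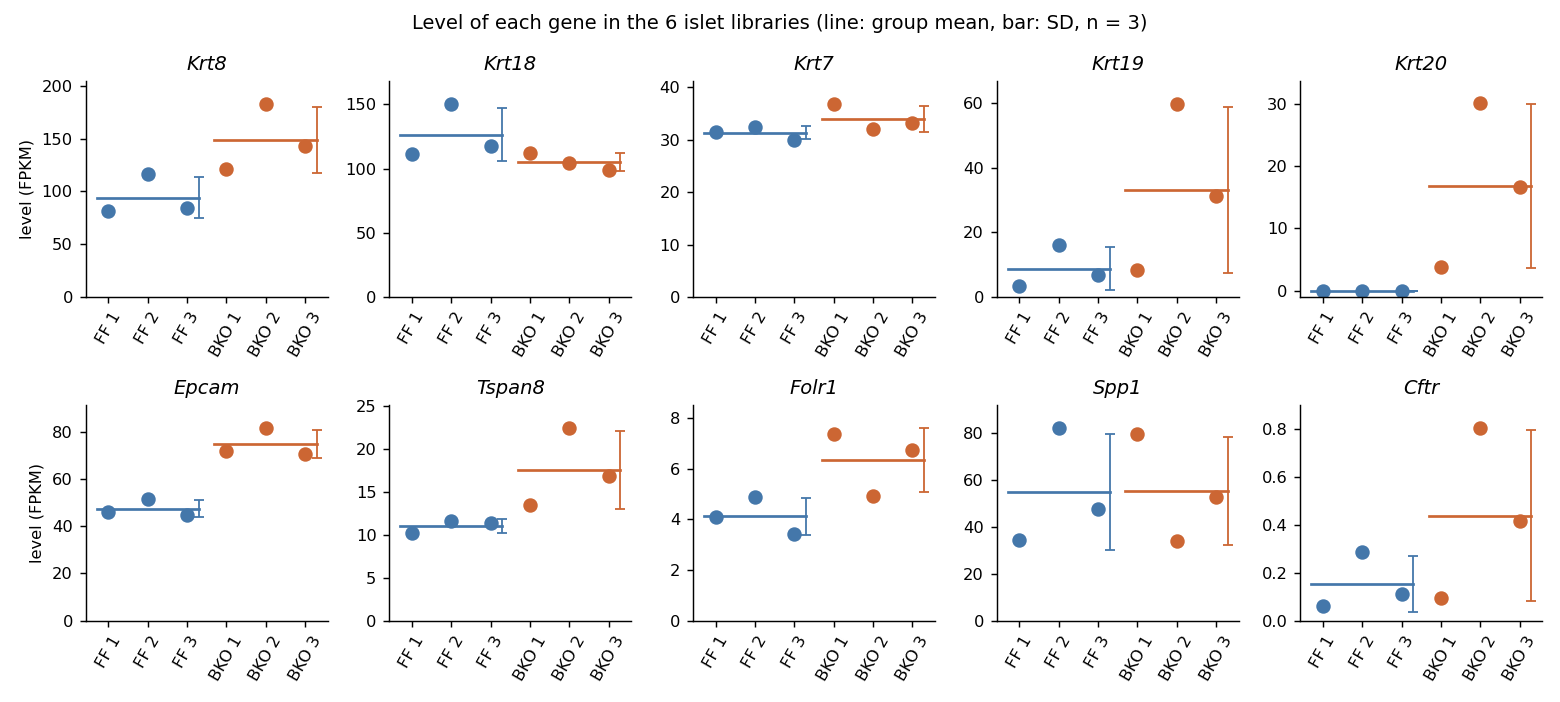
Level of each of the 10 genes in FPKM in the 6 libraries (points), with the group mean as a line and the SD as a bar (n = 3 per group) and a linear vertical axis per gene. Krt19, Krt20 and Cftr are highest in BKO 2 and low in BKO 1, Epcam is separated by group, and Spp1 is highest in FF 2 and BKO 1.

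The order of the levels differed between the groups. In FF it ran from Krt18 (126.5 FPKM) through Krt8 (94.2), Spp1 (54.8), Epcam (47.4), Krt7 (31.3), Tspan8 (11), Krt19 (8.73) and Folr1 (4.13) to Cftr and Krt20. In BKO Krt8 (148.9 FPKM) stood above Krt18 (105.2), followed by Epcam (74.7), Spp1 (55.3), Krt7 (34.0), Krt19 (33.1), Tspan8 (17.5), Krt20 (16.8), Folr1 (6.36) and Cftr. Of neighbours in the FF order, Epcam and Krt7, Krt7 and Tspan8, and Folr1 and Cftr had values that did not overlap, whereas the ranges of the other neighbours with reads did. In BKO the ranges of Krt8 and Krt18, of Krt18 and Epcam, and of Folr1 and Cftr were apart, and all other neighbours overlapped.

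The order over the BKO libraries sorted the 10 genes into sets. Krt8, Krt19, Krt20, Tspan8 and Cftr ran BKO 2 > BKO 3 > BKO 1, an order found in 24.1% of tested genes. Their steps were unequal, with BKO 2 at 1.51 times BKO 1 for Krt8, 1.67 times for Tspan8, 7.26 times for Krt19, 8.04 times for Krt20 and 8.67 times for Cftr. Of the 9 tested genes, Krt19 and Krt20 had this order with BKO 2 at least 2 times BKO 1, as had 3.83% of tested genes. Krt7, Folr1 and Spp1 ran BKO 1 > BKO 3 > BKO 2, the order of 27.2% of tested genes, with BKO 2 at 0.871, 0.669 and 0.425 times BKO 1. Krt18 and Epcam had other orders and varied little among the BKO libraries.

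Set against the FF mean, the amount above it in BKO 1, BKO 2 and BKO 3 was 26.7, 88.6 and 48.6 FPKM for Krt8 and 2.41, 11.4 and 5.77 for Tspan8. For Krt19 it was -0.507, 51.0 and 22.6, and for Krt20 3.73, 30.0 and 16.6. Epcam exceeded its FF mean by 24.5, 34.2 and 23.3 FPKM, most in BKO 2. Folr1 was above by 3.26, 0.810 and 2.61, and Spp1 by 24.6, -21.0 and -1.94. In BKO 1, where Krt19 was near its FF mean, Krt8 and Epcam were still above every FF library.

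Lists of markers of the candidate cell types were read in the same libraries. The enterocyte list (24 genes) summed to 172.8, 148.9 and 159.8 FPKM in FF 1 to FF 3 and to 304.8, 1109.7 and 639.5 in BKO 1 to BKO 3. Of its 20 tested genes, 15 rose, 0 fell and 5 did not pass, with a median log2 difference of 2.38, which Alpi, above it and at 0 in FF, would not move at its bound. Most of the risers, among them Fabp2 and Alpi, had FF means under 1 FPKM and entered the test only through BKO. They could hardly be called lower, which raises the count and the median. Other risers, such as Anpep at 18.5 FPKM in FF, did not need BKO to enter. The order BKO 2 > BKO 3 > BKO 1 held for 19 of the 20, and BKO 2 was at least 2 times BKO 1 in 16. Fabp2, a fatty acid-binding protein of the small intestine, was at 0.0956 ± 0.166 and 73.6 ± 68.8 FPKM (SD, n = 3 each, limma adjusted p = 0.00361), and the brush border phosphatase Alpi was at 0 in every FF library and at 40.4 ± 34.5 in BKO (adjusted p = 0.00187). Slc2a5, the fructose transporter, was already at 74.8 ± 6.39 FPKM in FF and did not pass. With limma-voom 4 genes of the list rose, and without BKO 2 and BKO 3 6 rose.

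The list of other intestinal epithelial markers (22 genes) ran the same way. It summed to 78.7, 102.2 and 86.0 FPKM in FF 1 to FF 3 and to 71.8, 441.9 and 238.7 in BKO 1 to BKO 3, and all 15 tested genes had the order BKO 2 > BKO 3 > BKO 1. Of these, 10 rose, 1 fell and 4 did not pass. Among the risers, only Gpa33 had an FF mean of at least 1 FPKM (1.71). The others entered the test through BKO and could hardly be called lower. Tff3, a trefoil peptide of goblet cells, was at 0.135 ± 0.134 and 18.5 ± 12.3 FPKM (limma adjusted p = 0.00156), and Cdh17, a cadherin of intestinal epithelium, at 0.0152 ± 0.0151 and 8.96 ± 7.80 (adjusted p = 0.0137). Other goblet cell genes of the list differed. Agr2, Fcgbp and Clca1 rose, whereas Zg16, at 23.5 and 21.9 FPKM, and Spink4 (limma adjusted p = 0.0984) did not pass. Olfm4, a marker of intestinal stem cells, fell from 50.8 ± 0.457 to 26.6 ± 4.75 FPKM (adjusted p = 0.00259). In the list 4 genes had no read in any FF library, among them the mucin Muc2, which had only 0, 0 and 3 reads in BKO 1 to BKO 3.

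The sum of the duct list (22 markers other than the 10 genes) was nearly level over the BKO libraries. The list summed to 136.4, 227.9 and 173.9 FPKM in FF 1 to FF 3 and to 221.2, 206.8 and 212.2 in BKO 1 to BKO 3. These sums are weighted to its most abundant genes, Clu and Ambp, and single genes were less level. Of 16 tested genes 0 rose, 2 fell and 14 did not pass, with a median log2 difference of 0.13, and no marker was at 0 in all libraries of a group. The count of risers was 0 to 6 over the alternatives. Hes1, a target of Notch signalling, fell from 14.3 ± 3.48 to 8.70 ± 0.165 FPKM (SD, n = 3 each, limma adjusted p = 0.0199). Clu, which encodes clusterin, was the most abundant, at 60.8 ± 21.1 and 86.8 ± 9.84 FPKM (adjusted p = 0.111).

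In the duct list 5 tested genes had the order BKO 2 > BKO 3 > BKO 1, 5 the order BKO 1 > BKO 3 > BKO 2 and 6 another. The median of BKO 2 over BKO 1 was 1.02 in this list and 7.90 in the enterocyte list. In 4 tested duct-list genes (Car2, Wfdc2, Mmp7 and Kcne3) BKO 2 was at least 2 times BKO 1, whereas in Tff2 it was 0.342 times. Below the filter, it was 2.52, 4.38 and 2.23 times in Onecut1, Onecut2 and Slc4a4. In Sctr, Cldn10 and Anxa13, also below the filter, it was 0.933, 0.582 and 0.164 times. In FF the list did have an order, FF 2 > FF 3 > FF 1, in 14 of 16 tested genes, against 20.6% of all tested genes.

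Krt19, Krt20 and Cftr had an order and a step over the BKO libraries like those of the enterocyte list, and Krt7 and Spp1 did not. The duct-list genes Car2, Wfdc2, Mmp7 and Kcne3 also had that order, with BKO 2 at 2.91 to 5.56 times BKO 1. Onecut1, Onecut2 and Slc4a4, below the filter like Cftr, had it too, at 2.23 to 4.38 times. In FF, 6 of the 10 genes (Krt8, Krt18, Krt19, Spp1, Cftr and Tspan8) ran FF 2 > FF 3 > FF 1. Most of the duct list had this order, as had all 15 tested genes of the acinar list described below and 2 of the 20 tested enterocyte genes. FF 2 was 4.94 times FF 1 for Krt19, 4.79 times for Cftr and 2.38 times for Spp1. It was 1.67 times FF 1 for the summed duct list and 3.05 times for the summed acinar list. Krt19 and Cftr thus had the order of most duct-list and all tested acinar genes in FF and that of most enterocyte genes in BKO. Krt20 per 1000 FPKM of the enterocyte list was 12.3, 27.0 and 25.9 in BKO 1 to BKO 3, lowest in BKO 1. Krt20 over Fabp2, which was near 0 in FF, was 0.417, 0.206 and 0.251, highest in BKO 1, so the 2 measures ranked BKO 1 differently. The sum of the enterocyte list includes the 148.9 to 172.8 FPKM that it also had in FF. The tissue of origin of these reads was not tested, since an order of 3 libraries is shared by many genes.

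**Figure D4:**
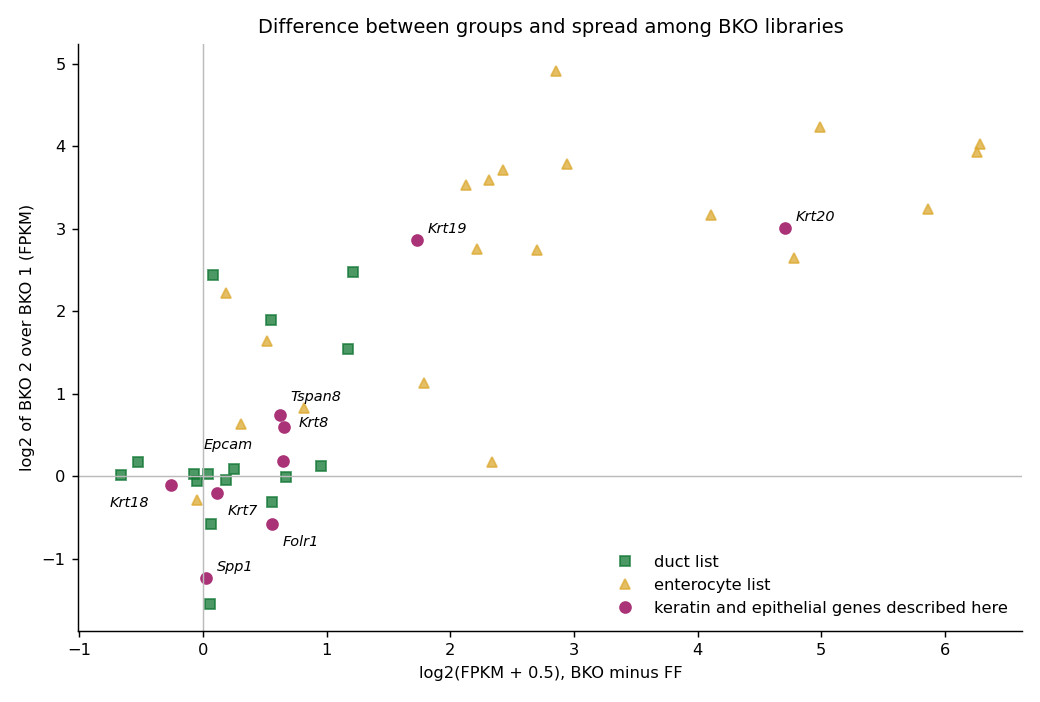
Difference between the groups (horizontal axis, log2(FPKM + 0.5), BKO minus FF) against the step among BKO libraries (vertical axis, log2 of BKO 2 over BKO 1) for the 9 tested genes (circles) and the tested genes of the duct (squares) and enterocyte (triangles) lists. Krt20, at a difference of 4.70, and Krt19, at 1.73, lie among the enterocyte genes, while the other 7 lie at differences of -0.25 to 0.65, where most duct-list genes also lie.

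**Figure D5:**
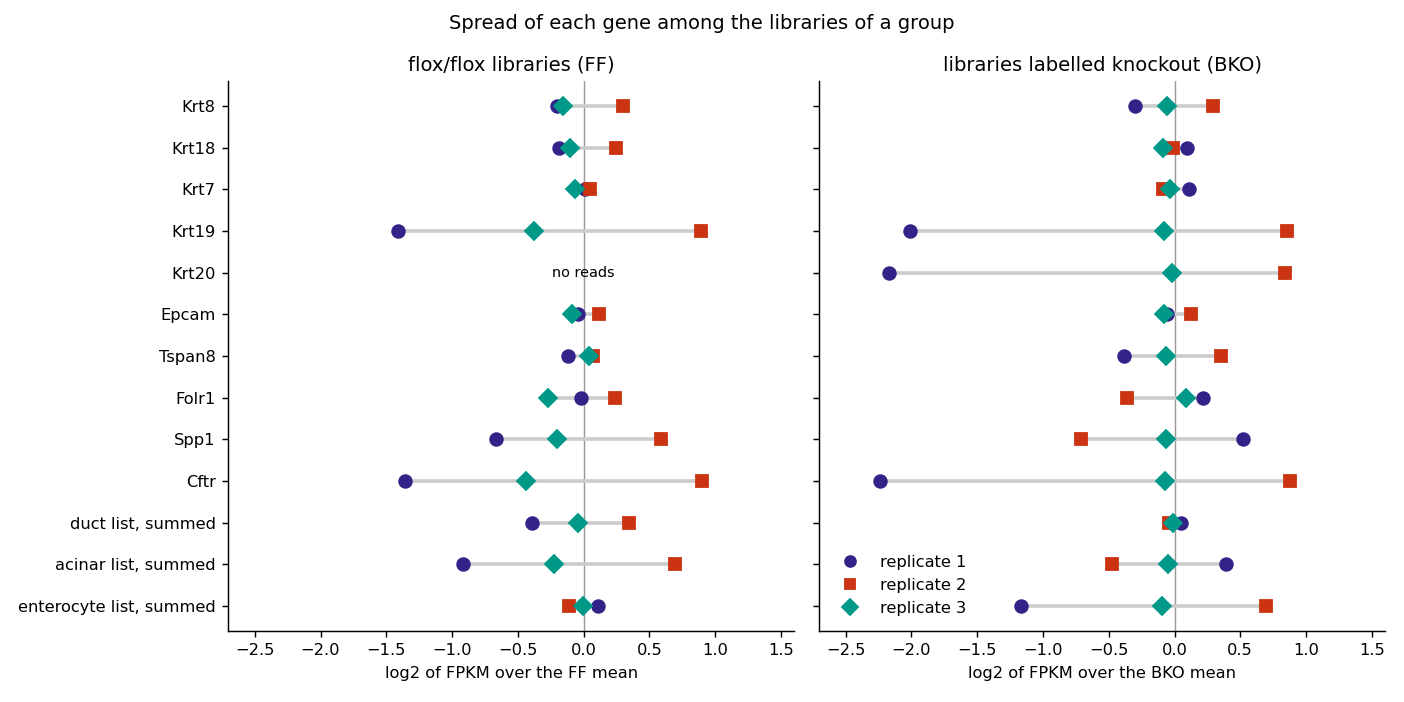
Each gene and 3 marker lists (summed FPKM) in FF (left) and BKO (right), on a horizontal axis of log2 of the library's FPKM over the mean of its group, with 1 symbol per replicate. In BKO replicate 2 is highest and replicate 1 lowest for Krt19, Krt20, Cftr and the enterocyte list, the duct list is close to 0 in all 3, and Spp1 and the acinar list have replicate 1 highest and replicate 2 lowest.

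Most tested acinar genes, which encode digestive enzymes, fell. The acinar list (19 genes) summed to 828.8, 2531 and 1341.7 FPKM in FF 1 to FF 3 and to 702.6, 385.2 and 518.8 in BKO 1 to BKO 3, and 12 of its 15 tested genes fell, 0 rose and 3 did not pass. All 15 had the order FF 2 > FF 3 > FF 1 and 14 the order BKO 1 > BKO 3 > BKO 2. Spp1 had both of these orders, and so had the summed duct list and the duct genes Clu, Prom1, Tff2 and Sox9, the last 3 chosen after their values were seen. Spp1 per 1000 FPKM of the acinar list was 41.6, 32.5 and 35.5 in FF 1 to FF 3 and 112.9, 87.6 and 101.8 in BKO 1 to BKO 3, so the proportion varied little within a group and differed between them. Against the duct gene Clu, Spp1 stood at 0.807, 0.978 and 0.854 in FF and at 0.812, 0.429 and 0.630 in BKO. The part of acinar or duct tissue in the Spp1 values was not tested.

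Markers of other cells in islet RNA were read as well. Lymphocyte and plasma cell genes summed to 13.6 to 30.3 FPKM in FF and to 1216, 1944 and 1509 in BKO 1 to BKO 3, and all 13 tested genes rose (Igkc, the κ light chain constant region, adjusted p = 4.25e-05). Any of them that reached the mean of 1 FPKM only through BKO could hardly be called lower, which raises the count. Among all tested genes 16.9% rose and 17.2% fell. By sum the lymphocyte list shares the order of Krt20, although 6 of its tested genes ran BKO 1 > BKO 3 > BKO 2. Mesothelial genes summed to 11.4 to 21.5 FPKM in FF and 3.22 to 4.70 in BKO, where Msln, the 1 tested, fell by 2.24 on the log2 scale (adjusted p = 0.00224). Tuft cell genes summed to 6.29 to 8.91 and 7.72 to 9.47 FPKM, with 0 of 3 tested past the threshold, and macrophage genes to 188.0 to 218.2 and 194.8 to 222.9, with 1 higher, 3 lower and 6 not past. Of gastric genes 2 were tested, and Atp4a fell by 2.02 (adjusted p = 0.00072). Of 8 tested fibroblast and pericyte genes 5 rose and 2 fell. Their part in the differences of the 10 genes was not tested.

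The other genes of epithelial adhesion and polarity rose in part with Epcam. Of 21 tested genes 8 rose, 2 fell and 11 did not pass, with a median log2 difference of 0.34, beside 16.9% higher and 17.2% lower among all tested genes. Cldn4, a tight junction claudin, rose from 30.4 ± 2.66 to 65.4 ± 12.1 FPKM (SD, n = 3 each, log2 difference 1.08 ± 0.14 SE, limma adjusted p = 0.00224), with BKO 1 the highest of its group. Ocln, another tight junction protein, rose by 0.85 (adjusted p = 0.0049) and the epithelial transcription factor Elf3 by 0.83 (adjusted p = 0.0463). E-cadherin, Cdh1, rose from 45.3 ± 0.646 to 57.4 ± 4.06 FPKM (adjusted p = 0.0132). Over the BKO libraries 8 of the 21 ran BKO 2 > BKO 3 > BKO 1 and 5 ran BKO 1 > BKO 3 > BKO 2, and in none was BKO 2 at least 2 times BKO 1 in the first order. With own-total scaling 15 rose and 0 fell.

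Intermediate filament and desmosome genes outside the set were mixed. Of 23 tested genes 3 rose, 3 fell and 17 did not pass, with a median log2 difference of 0.06. Among all tested genes 16.9% rose and 17.2% fell. Nes, the nestin filament protein, fell from 6.28 ± 0.455 to 3.23 ± 0.454 FPKM (limma adjusted p = 0.00209), and Pkp4, a plakophilin of cell junctions, from 25.8 ± 0.465 to 16.9 ± 0.381 (adjusted p = 0.000797). Dsc2, a desmosomal cadherin, rose from 2.47 ± 0.247 to 4.20 ± 0.753 (adjusted p = 0.0123), and the nuclear lamin Lmnb1 from 4.92 ± 0.480 to 8.99 ± 0.381 (adjusted p = 0.00108).

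Keratins beyond the 5 were scarce. The table holds 54 keratin genes, of which 32 had a read, and 22 of the 49 others had none. The others summed to 9.54, 12.4 and 11.5 FPKM in FF 1 to FF 3 and to 13.0, 12.5 and 12.5 in BKO 1 to BKO 3, so most of the keratin FPKM lay in the 5 genes. Of the others, 4 reached a mean of 1 FPKM in either group. Krt222 rose from 2.06 to 4.15 FPKM (log2 difference 0.86 ± 0.13 SE, limma adjusted p = 0.0043) and Krt87 from 0.670 to 1.78 (0.96 ± 0.20, adjusted p = 0.0117). Krt10, a type I chain of stratified epithelium, fell from 3.57 to 2.43 (-0.47 ± 0.09, adjusted p = 0.00781), and Krt23 was at 1.51 in both. A Krt8 pseudogene, Krt8-ps, had 77 reads over the 6 libraries, and how reads that match both copies were counted is not given in the sources used here.

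Around the surface and secreted genes, the lists of partners moved in both directions, as did all tested genes, of which 16.9% rose and 17.2% fell. Among 14 tested tetraspanins and folate genes 6 rose, 2 fell and 6 did not pass. The tetraspanin Cd9 rose from 6.81 ± 1.95 to 14.2 ± 1.33 FPKM (limma adjusted p = 0.00783), Cd63 of endosomes fell from 87.5 ± 7.0 to 50.8 ± 7.58 (adjusted p = 0.00426), and the folate carriers Slc19a1 and Slc46a1 rose by 0.92 and 0.85 on the log2 scale (adjusted p = 0.00307 and 0.0171). Among 8 tested receptors and partners of osteopontin 3 rose, 1 fell and 4 did not pass. Cd44, an osteopontin receptor, rose from 3.84 ± 0.420 to 10.2 ± 0.906 FPKM (adjusted p = 0.000375), and the integrin chain Itgb3 from 1.03 ± 0.230 to 2.60 ± 0.367 (adjusted p = 0.00558).

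Of 10 tested genes for anion and fluid secretion around Cftr, 4 rose, 3 fell and 3 did not pass. The shares among all tested genes were 16.9% higher and 17.2% lower. Slc9a3r1, a scaffold that anchors Cftr at the apical membrane, rose from 11.2 ± 0.0533 to 32.6 ± 12.9 FPKM (limma adjusted p = 0.00792). Gucy2c, the guanylin receptor, rose from 4.10 ± 0.739 to 10.2 ± 1.48 (adjusted p = 0.00162), and its ligand Guca2b was at 0 in every FF library and at 4.90 ± 4.78 in BKO (adjusted p = 0.027). Car4, a membrane carbonic anhydrase, fell from 18.5 ± 1.06 to 8.57 ± 1.20 (adjusted p = 0.00088). The list summed to 51.0 to 55.7 FPKM in FF and to 55.6, 107.0 and 72.9 in BKO 1 to BKO 3.

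Genes whose profile over the 6 libraries was nearest to each gene were found by Euclidean distance between log2(FPKM + 0.5) values centred on the gene's own mean. The nearest to Krt20 were an immunoglobulin variable segment, Igkv4-59, at 0.464, the intestinal alkaline phosphatase Akp3, at 0.597, and Tff3, at 0.610. Akp3 had no FF read and 6.01, 40.8 and 20.3 FPKM in BKO 1 to BKO 3. The nearest to Krt19 was Slc5a1, the sodium-glucose cotransporter of the small intestine, at 0.875, with 0.741, 2.41 and 1.38 FPKM in FF 1 to FF 3 and 1.87, 21.7 and 10.3 in BKO 1 to BKO 3. After Slc5a1 came mt-Tt, at 1.00, and Aldh1a2, at 1.07. Spp1 was nearest to Prss3, a pancreatic trypsinogen, at 0.490, with 0.643, 3.37 and 1.47 FPKM in FF and 3.50, 0.871 and 1.53 in BKO. After Prss3 came Srp54, at 0.516, and Mir466i, at 0.558. Krt18 was nearest to Manf, Ostc and Tmed1, genes of the secretory pathway, at 0.0821 to 0.105. Krt8 was nearest to Mical1, Pfkp and Txn1, Epcam to Zfp212, Pfn1 and Slc2a6, Tspan8 to Psmb9, Cs and Bak1, Folr1 to Slc28a2, Mrpl50 and Bpgm, and Krt7 to Brk1, Apbb1 and Snap47.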

How the data were processed

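The 6 libraries were grouped by their titles and genotype labels. The labels' protocols give total RNA extraction and Illumina library preparation. Tools listed in the submitters' processing notes, without their roles, are DESeq2 1.16.1, HISAT2 2.0.5 and featureCounts 1.5.0-p3, and the build is GRCm38.p6. The authors deposited a single table of FPKM values, which also has each gene's length and position per the file headers. There were 0 further per-sample columns. FPKM times length gave whole multiples of a step per library (100% within 0.1 of a whole number), which were taken as reads. The deposited divisor was 0.855 to 0.885 times the library total in FF and 1.13 to 1.17 times in BKO, and the median-of-ratios factor of the FPKM was 1, so the values were already scaled so that the typical gene shows no change. Total RNA per cell is not measured by this.

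The test was limma (3.58.1, R 4.3.3, two-sided, variance trend) on log2(FPKM + 0.5) of genes with a mean of at least 1 FPKM. This scale understates the change of low genes. A gene that reached this mean only through BKO could hardly be called lower, which raises the counts of risers in lists of such genes. P-values were adjusted by Benjamini-Hochberg over all 14497 tested genes, with 0.05 as the threshold. The fit was tested on simulated data. Alternatives were pseudocounts of 0.1 and 1, filters at any read and at a mean of 5, own-total and quantile scaling, limma without trend, limma-voom on recovered reads, a replicate block, and leaving out libraries. Tables were read with Python 3.11.15 and pandas 2.3.3. Strandedness is not given in the sources used here.

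The members and all marker lists were chosen with earlier results of these data known, so no list is independent evidence of its direction. Besides the 10 genes and Mettl3, the named-gene rule took from each list up to 4 genes past the threshold with the largest change and the 2 with the highest mean, other keratins with a mean of 1 FPKM in either group, and the 3 nearest profiles of each gene. The values of 1 gene that this rule took are not reported here.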

Additional observations from a re-analysis of the deposited data

How the results depend on the processing

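The number of the 10 genes that rose was 5 and held at 5 with the replicate block, but fell to 2 with limma without a variance trend, to 2 with every gene with a read tested and to 0 without BKO 2 and BKO 3, and ranged from 2 to 5 when 1 library was left out. Over all genes 4935 passed, against 3090 with a mean of at least 5 FPKM, 8374 with own-total scaling, 1132 without BKO 2 and BKO 3, 4659 with the replicate block and 2713 to 4213 with 1 library left out. Duct genes that rose numbered 0, against 1 with a mean of at least 5 FPKM, 6 with own-total scaling, 1 with a pseudocount of 1, 3 with quantile normalization, 3 with the replicate block, 2 with limma-voom and 0 to 3 with 1 library left out. Duct genes that fell numbered 2, against 0 with own-total scaling, 0 without BKO 2 and BKO 3, and 1 to 2 with 1 library left out. Enterocyte genes that rose numbered 15, against 4 with limma-voom, 6 without BKO 2 and BKO 3, and 8 to 19 with 1 library left out.

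Own-total scaling moves the median of all genes to 0.37 and reversed Slc2a5 to 0.36, Pnn to 0.14, Tspan13 to 0.0535 and Csf1r to 0.00541. The cause of the other changes was not tested. Same-numbered libraries of the groups had correlated deviations of 0.081, 0.075 and 0.042, each under 0.1, so the numbers were not taken to pair the samples, although every library correlated best with its own number. With that block Krt19 passed (adjusted p = 0.00651) and Folr1 did not (0.0874). Cftr, with 7 to 122 reads, is the gene most limited by depth.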
